A study of Homo sapiens with 8 samples.

Results

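The genes encoding matrix metalloproteinases (MMPs), ADAMTS proteases and the tissue inhibitors of metalloproteinases (TIMPs) were examined in 2 human non-small cell lung cancer cell lines and their drug-resistant variants. The set was a list of 42 gene symbols, namely 19 MMPs, 19 ADAMTS genes and 4 TIMPs, chosen with earlier results of these data known. All 42 genes were found among the 37441 genes of the count table, and 31 of them passed the filter for testing, a sum over the 8 libraries of 10 counts or more. The other 11 did not reach it, namely MMP3, MMP7, MMP8, MMP12, MMP13, MMP19, MMP21, TIMP4, ADAMTS12, ADAMTS16 and ADAMTS18. MMP8, TIMP4 and ADAMTS16 had 0 counts in every library. ADAMTS9 lay just inside the filter with 10 counts in total, and MMP12 just outside it with 7.

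NCI-H1581 and NCI-H1703 are established lines sensitive to the FGFR inhibitor CPL304110. Their variants NCI-H1581R and NCI-H1703R were selected in rising inhibitor concentrations, beginning at 50 nM and ending at 2.5 µM for NCI-H1581R and 5 µM for NCI-H1703R. Each variant is 1 selected population with 2 RNA-seq libraries, the second from a repeat of the whole culture procedure, so the spread between replicates does not cover variation between independent selections. NCI-H1581 and NCI-H1581R were grown in DMEM/F12 and NCI-H1703 and NCI-H1703R in RPMI 1640, both with serum, and cells were harvested 24 h after a change of medium. Whether the inhibitor was in that medium is not given in the sources used here, so a lasting change and a response to drug present at harvest cannot be told apart.

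MMPs are zinc-dependent endopeptidases that cleave collagens, gelatin, proteoglycans and other matrix and cell surface proteins. Most are secreted as inactive zymogens, and the membrane-type MMPs are tethered to the cell surface by a transmembrane segment or a GPI anchor. TIMPs bind the active site of MMPs and hold them inactive, and TIMP2 also takes part in the activation of pro-MMP2 by MMP14 at the cell surface. ADAMTS proteases are secreted enzymes with thrombospondin repeats, of which some cleave proteoglycans such as versican and aggrecan and others process procollagens or fibrillin-associated proteins. In tumours these families are best known for matrix remodelling and invasion, and several of the MMP genes are classical targets of AP-1 and ETS factors acting below the MAPK pathway.

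Total counts were between 33800389 and 40031710 per library, and 3 counts, the upper limit that a count of 0 allows, corresponded to 0.0749 to 0.0897 CPM, the count scaled to a common library size, a limit that covers counting error only. Levels below are CPM after TMM scaling of all 8 libraries, as mean ± SD with n = 2, and levels of different genes are compared only after division by transcript length (CPM per kb). Marker sums are the exception, given in CPM without division by length. The epithelial markers EPCAM, CDH1, KRT7, KRT8, KRT18 and KRT19 were low, with a summed level of 10 to 78.4 CPM over the libraries. The mesenchymal markers VIM, FN1 and CDH2 summed to 2640 to 6715 CPM, nearly all of it VIM in the groups other than NCI-H1581R. The epithelial sum was 77.8 and 78.4 CPM in NCI-H1703 and 10 to 11.4 CPM in NCI-H1703R, a difference carried by KRT18 (64.9 against 2.68 CPM on average). Of the mesenchymal markers, FN1 went from 1.02 to 832 CPM in NCI-H1581R and CDH2 from 49.4 to 1.12 CPM in NCI-H1703R. The squamous markers TP63 and KRT5 summed to 6.29 to 6.97 CPM in NCI-H1581, 27.8 to 32.3 CPM in NCI-H1581R and at most 1.26 CPM in the other line. The neuroendocrine markers CHGA, SYP and NCAM1 summed to 142 to 158 CPM in NCI-H1581 and NCI-H1581R and 8.67 to 18.3 CPM in NCI-H1703 and NCI-H1703R. The fibroblast markers COL1A1, COL1A2, PDGFRB and DCN summed to 2150 to 2442 CPM in NCI-H1581, 1015 to 1035 CPM in NCI-H1581R, 2.57 to 3.03 CPM in NCI-H1703 and 23.5 to 27.8 CPM in NCI-H1703R. Endothelial markers summed to at most 0.449 CPM. Of the leukocyte markers, CD3E was at 0 in every library and CD68 made up nearly all of a sum of 77.5 to 97 CPM in NCI-H1581, 15.1 to 19.1 CPM in NCI-H1581R, 20.2 to 22.4 CPM in NCI-H1703 and 43.1 to 55 CPM in NCI-H1703R. The part of these shifts in the results below was not tested.

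The regions upstream of MMP10 and TIMP1 are shown because these genes fell most in NCI-H1703R and in NCI-H1581R, respectively, among the members called there. The sequences are those of RefSeq, read 5′ to 3′ on the strand of the gene, ending at the base before the annotated gene. MMP10 lies on the minus strand with the window chr11:102780629-102780878, and TIMP1 on the plus strand with the window chrX:47582186-47582407, both of GRCh38.p14. Capitals mark matches to the AP-1 motif TGANTCA and the TATA box TATAAA in MMP10, and to the PEA3 (ETS) motif AGGAAG in TIMP1.
MMP10: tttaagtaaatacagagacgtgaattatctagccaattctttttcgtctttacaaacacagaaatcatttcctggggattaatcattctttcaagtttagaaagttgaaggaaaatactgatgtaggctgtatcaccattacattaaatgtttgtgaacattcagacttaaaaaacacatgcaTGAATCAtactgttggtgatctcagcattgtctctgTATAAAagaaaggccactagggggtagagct
TIMP1: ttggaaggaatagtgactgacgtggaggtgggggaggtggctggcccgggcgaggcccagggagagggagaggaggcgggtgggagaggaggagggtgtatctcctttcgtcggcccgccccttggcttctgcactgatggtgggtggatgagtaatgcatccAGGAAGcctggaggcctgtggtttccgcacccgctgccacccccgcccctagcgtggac
The AP-1 and PEA3 motifs were searched on both strands and the TATA box on the strand of the gene, in the 250 bases before the start of 35116 RefSeq promoters, which included 24 windows of 23 members. The other members, MMP1 and MMP2 among them, had no window and were not searched. The AP-1 letters were found in 6.57% of all windows and in 3 of those of the members, MMP7, MMP10 and ADAMTS12. The PEA3 letters were found in 28.7% of all windows and in 6 of the members, and the TATA box in 6.8% and in 4. The match in MMP10 begins 67 bases before the RefSeq start for AP-1 and 31 bases before it for the TATA box, and the PEA3 match in TIMP1 begins 87 bases before it. These matches describe letters in a window and no binding was measured.

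The first comparison asked which of these genes differed between each resistant variant and its sensitive line. In NCI-H1581R, TIMP1 was almost lost, MMP2 and MMP25 fell, and MMP16, ADAMTS19, ADAMTS6 and ADAMTS5 rose. In NCI-H1703R, MMP10, MMP1, MMP9 and further MMPs fell, whereas MMP17 and ADAMTS3 rose. With edgeR's quasi-likelihood test and an adjusted p under 0.1 over all 18203 genes tested, 12 of the 31 members (38.7%) were called in NCI-H1581R, against 15.1% of all genes. They were 6 higher and 6 lower, against 7.63% higher and 7.44% lower among all genes. In NCI-H1703R 13 members (41.9%) were called, against 14.7% of all genes, with 3 higher and 10 lower, against 7.06% and 7.67%. The median log2 fold change of the 31 members was -0.37 in NCI-H1581R and -0.51 in NCI-H1703R, or -0.35 and -0.47 with genes at 0 in a whole group set to the limit of 3 counts per library, beside 0.04 and 0.00 over all genes.

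**Figure D1:**
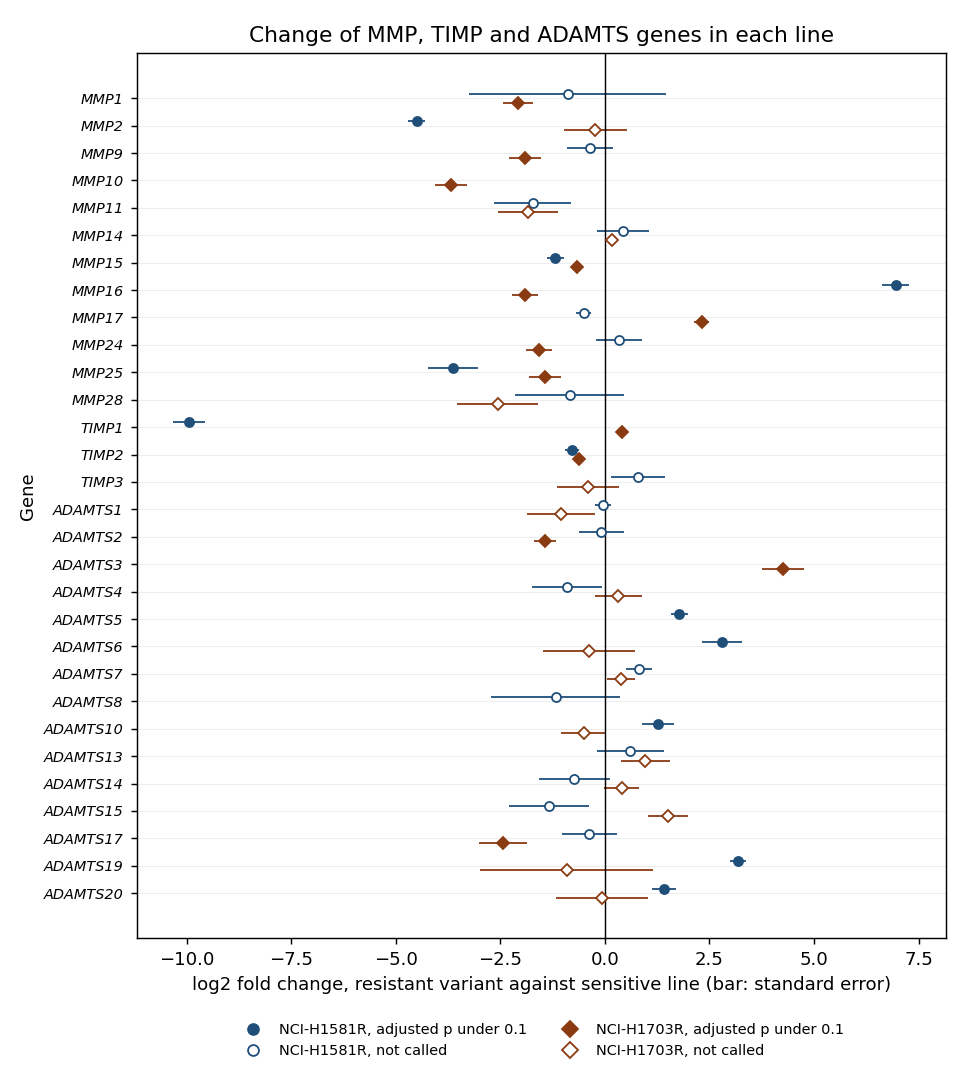
Log2 fold change (x axis) of each tested member (y axis) in NCI-H1581R against NCI-H1581 (blue circles) and NCI-H1703R against NCI-H1703 (brown diamonds), with bars for the standard error and filled symbols for an adjusted p under 0.1. Changes against a group with 0 counts in both libraries are not drawn, and TIMP1 stands farthest from 0 at -9.94 in NCI-H1581R.

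The calls in NCI-H1703R rested on all 4 libraries. Without NCI-H1703 replicate 1, 2 members were called (MMP10 and MMP17), without NCI-H1703 replicate 2, 1 member (MMP17), without NCI-H1703R replicate 1, 8, and without NCI-H1703R replicate 2, 7, and over all genes the calls fell from 2683 to 293 and 274 without the first and second NCI-H1703 library. With the replicate number as a block, 19 members were called in NCI-H1703R, against 34.9% of all genes, and 12 in NCI-H1581R, against 18.1%. The 6 members gained in NCI-H1703R were MMP11 (adjusted p = 0.0817 in edgeR with the block), MMP14 (0.062), MMP28 (0.0543), ADAMTS8 (0.0858), ADAMTS13 (0.0319) and ADAMTS15 (0.0399). In NCI-H1581R, MMP15, TIMP2, ADAMTS3, ADAMTS10 and ADAMTS20 lost their call without NCI-H1581 replicate 1. Leaving out each library in turn shifted the calls over all genes up and down. Counts from these fits, for the members and for the lists of other genes below, thus cannot be read alone. MMP2, MMP16, MMP25, TIMP1, ADAMTS5 and ADAMTS19 were called in all 4 of these fits.

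Of the members, 6 were called in both lines (19.4%), against 3.38% of all genes. MMP15, MMP25 and TIMP2 fell in both variants. MMP16, TIMP1 and ADAMTS3 changed in opposite directions, MMP16 being higher and TIMP1 and ADAMTS3 lower in NCI-H1581R, and the reverse in NCI-H1703R. Whether a gene changed differently in the 2 lines was tested as an interaction over all 8 libraries. It called 6 members (19.4%), against 15.4% of all genes, so the share was near that of all genes. The 6 members were MMP2, MMP16, MMP17, MMP24, TIMP1 and ADAMTS3.

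**Figure D2:**
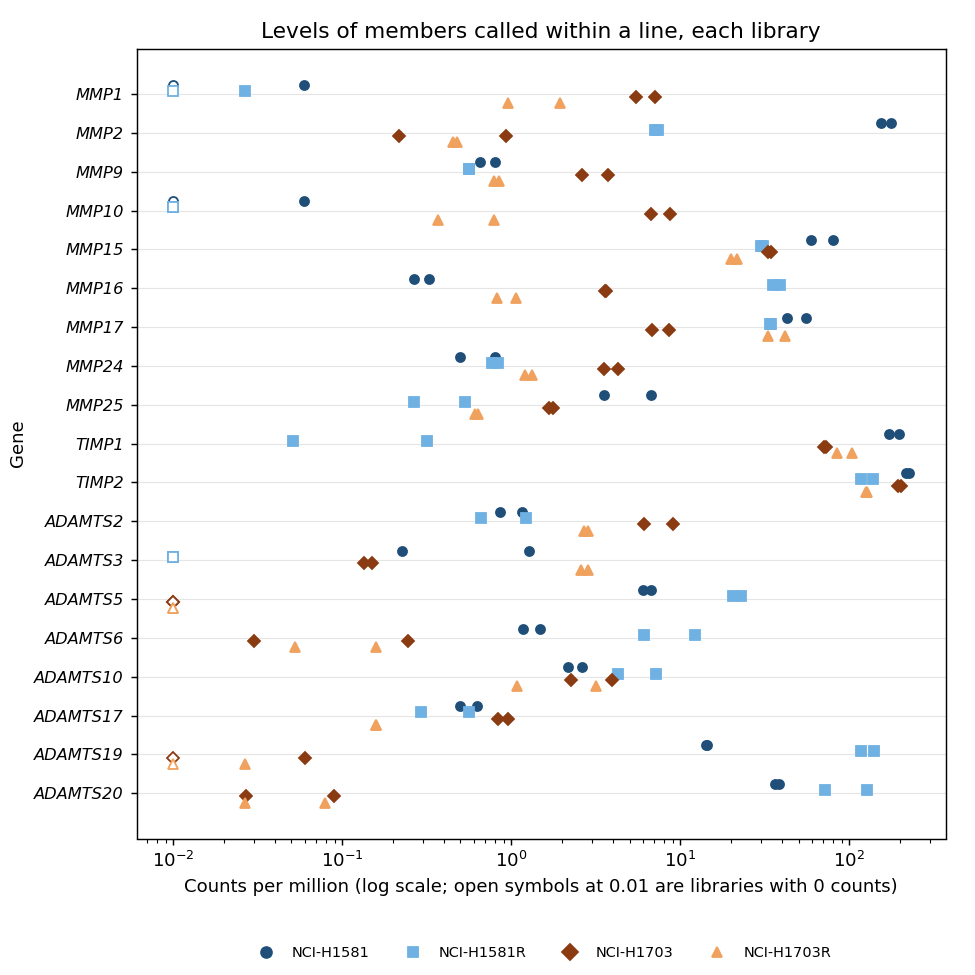
Level in CPM (x axis, log scale) in each of the 2 libraries per group of the 19 members (y axis) called in at least 1 line. Filled symbols are libraries with counts and open symbols at 0.01 libraries with 0 counts, and the TIMP1 libraries of NCI-H1581R lie at 0.319 and 0.0508 CPM, far below the other 6.

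Among the inhibitors, TIMP1 showed the widest change of any member. TIMP1 (ENSG00000102265, chromosome X, 47582408 to 47586789, GRCh38) encodes a secreted inhibitor of most soluble MMPs. Its counts were 6630 and 6846 in NCI-H1581 and 12 and 2 in NCI-H1581R, that is 184 ± 18.2 CPM against 0.185 ± 0.19 CPM. This was a log2 fold change of -9.94 (SE 0.38, adjusted p = 4.16e-05 in edgeR), and without NCI-H1581R replicate 1 it was -11.71 and without NCI-H1581R replicate 2 it was -9.16. In NCI-H1703 the 2 libraries held 72.7 and 71.2 CPM and in NCI-H1703R 84.4 and 103 CPM, so both resistant libraries were higher. There the log2 fold change was 0.41 (SE 0.11, adjusted p = 0.088 in edgeR), and the call was lost without NCI-H1703 replicate 1 (0.41), NCI-H1703 replicate 2 (0.42) or NCI-H1703R replicate 2 (0.26). The changes of the 2 lines differed by 10.34 on the log2 scale (SE 0.38, adjusted p = 6.28e-06 in edgeR).

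TIMP2 fell in both variants. It encodes the inhibitor that bridges MMP14 and pro-MMP2. Its level was 216 and 225 CPM in NCI-H1581 and 138 and 117 CPM in NCI-H1581R, and 195 and 203 CPM in NCI-H1703 and 125 and 127 CPM in NCI-H1703R. The groups did not overlap in either line, with a log2 fold change of -0.79 (SE 0.17, adjusted p = 0.0337 in edgeR) and of -0.63 (SE 0.09, adjusted p = 0.0132). The TIMP2 call was lost without either NCI-H1581 library (-0.83 and -0.76) and without either NCI-H1703 library (-0.67 and -0.58). TIMP3, which binds to the matrix, was near the limit of detection, with 8 to 26 counts in each library, and was not called in either line (adjusted p = 0.527 and 0.806 in edgeR). TIMP4 had 0 counts in all libraries, which allows up to 0.0897 CPM in the library where the limit was highest.

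The make-up of the inhibitor transcripts changed with these genes. Per kb of transcript, TIMP1 made up 81.2% and 78.3% of the summed TIMP level in NCI-H1581 and 1.09% and 0.206% in NCI-H1581R, where TIMP2 made up 98.6% and 99.3%. In NCI-H1703 the share of TIMP1 was 63.9% and 62.5%, and in NCI-H1703R 76.2% and 79.3%. The summed TIMP level was 315 and 284 CPM per kb in NCI-H1581, 38.2 and 32.1 in NCI-H1581R, 148 in both NCI-H1703 libraries, and 144 and 169 in NCI-H1703R. Thus the inhibitor sum was lower in both libraries of NCI-H1581R than in both of NCI-H1581, and the 2 groups of the other line overlapped.

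**Figure D3:**
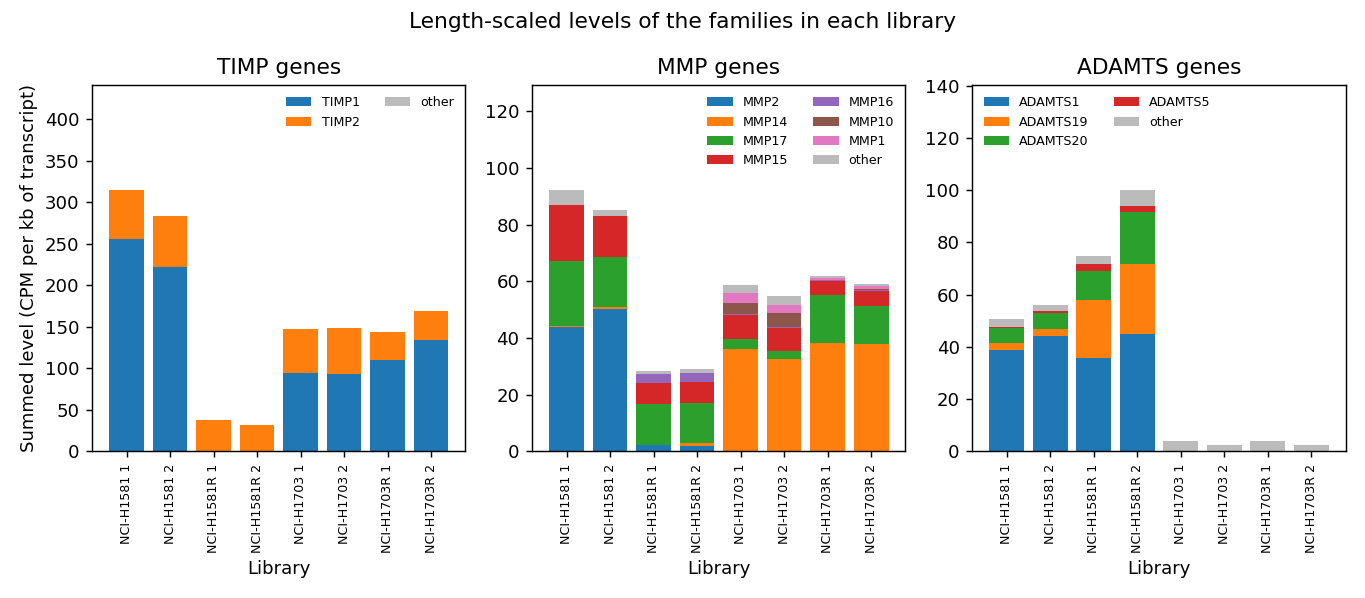
Summed level in CPM per kb of transcript (y axis) of the TIMP, MMP and ADAMTS genes in each library (x axis), with the most abundant genes in colour and the rest in grey. TIMP1 and MMP2 nearly vanish from the bars of NCI-H1581R, ADAMTS19 and ADAMTS20 take a larger part there, and MMP14 makes up most of the MMP bar in NCI-H1703 and NCI-H1703R.

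Of the gelatinases, which degrade denatured collagen and type IV collagen, MMP2 fell in NCI-H1581R and MMP9 in NCI-H1703R. MMP2 (ENSG00000087245, chromosome 16, 55389700 to 55506691) stood at 154 and 176 CPM in NCI-H1581 and at 7.41 and 7.09 CPM in NCI-H1581R, 22.6-fold lower. On the log2 scale this was -4.50 (SE 0.20, adjusted p = 7.64e-05 in edgeR). In the other line MMP2 was scarce, with 8 and 31 counts in NCI-H1703 and 17 and 18 in NCI-H1703R, and was not called (log2 fold change -0.23, SE 0.76, adjusted p = 0.917). The changes differed by 4.25 (SE 0.73, adjusted p = 0.00859 in edgeR), or by 3.51 and 5.62 without the first and second NCI-H1703 library. The share of MMP2 in the summed MMP level per kb was 47.5% and 59% in NCI-H1581 and 7.49% and 6.97% in NCI-H1581R, and the sum itself was 92.4 and 85.1 CPM per kb against 28.2 and 28.9.

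MMP9 was a minor transcript in both lines. It held 2.62 and 3.71 CPM in NCI-H1703 and 0.846 and 0.792 CPM in NCI-H1703R, a log2 fold change of -1.91 (SE 0.39, adjusted p = 0.0389 in edgeR). The call was lost when any 1 of the 4 libraries was left out, with values of -2.16 to -1.63. In NCI-H1581 and NCI-H1581R it held 26 to 27 and 21 to 22 counts, with no call (log2 fold change -0.35, adjusted p = 0.759). The annotation places exons of the opposite-strand gene SLC12A5-AS1 over 18.4% of the exon bases of MMP9, and the sources used here do not say whether quantification used strand.

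The collagenase MMP1 and the stromelysin MMP10 lie side by side in the MMP cluster of 11q22, and both fell in NCI-H1703R. MMP1 initiates the cleavage of fibrillar collagen, and MMP10 cleaves proteoglycans and activates other pro-MMPs. MMP10 (ENSG00000166670, chromosome 11, 102770502 to 102780628) had 249 and 289 counts in NCI-H1703 and 14 and 30 in NCI-H1703R, that is 7.69 ± 1.35 CPM against 0.581 ± 0.298 CPM. This 12.8-fold lower level was a log2 fold change of -3.68 (SE 0.38, adjusted p = 0.00498 in edgeR). It was -4.33 without NCI-H1703R replicate 2, and -3.48 with the call lost without NCI-H1703 replicate 2. MMP1 (ENSG00000196611, chromosome 11, 102789401 to 102798160) had 261 and 182 counts in NCI-H1703 and 36 and 74 in NCI-H1703R. This was 6.25 ± 1.14 CPM against 1.45 ± 0.708 CPM and a log2 fold change of -2.08 (SE 0.35, adjusted p = 0.0236 in edgeR). It was -2.69 without NCI-H1703R replicate 2, and the call was lost without the first (-1.89) or the second (-2.23) NCI-H1703 library. MMP1 and MMP10 were near 0 in NCI-H1581 and NCI-H1581R, with at most 2 counts in a library, which does not allow a statement on a change there.

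The other members of the cluster were hardly detected. The cluster spans 435 kb on chromosome 11 (102520508 to 102955732), from MMP7 to MMP13. MMP8 had 0 counts, MMP13 1 count in all, MMP3 3, MMP7 4 and MMP12 7, of which 6 were in NCI-H1703 replicate 2. Of the 16 genes tested within 3 Mb of the cluster, MMP1 and MMP10 were 2, and the remaining 14 gave the background of the region. In NCI-H1703R 3 of the 14 (21.4%) were called, against 14.7% of all genes, with ARHGAP42 (log2 fold change 1.55, adjusted p = 0.0997 in edgeR) and DYNC2H1 (0.58, 0.0909) higher and TMEM123 (-0.40, 0.0821) lower. The median log2 fold change of the 14 was 0.12. With the replicate block 7 of the 14 were called, against 34.9% of all genes, and leaving out 1 library at a time 0 or 1 was called. WTAPP1, a transcribed pseudogene that overlaps 8.14% of the exon bases of MMP1 on the opposite strand, held at most 19 counts in a library and was not called (-1.33, adjusted p = 0.337). In NCI-H1581R 5 of the 14 (35.7%) were called, against 15.1% of all genes, all higher, namely CFAP300, YAP1, BIRC2, PDGFD and GRIA4, with a median over the 14 of 1.12. PDGFD, a ligand of the PDGF receptors, rose by 3.25 on the log2 scale (adjusted p = 0.000207 in edgeR). Of these 5, PDGFD alone was called in all 4 fits with 1 library left out, which called 1 to 7 of the 14.

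**Figure D4:**
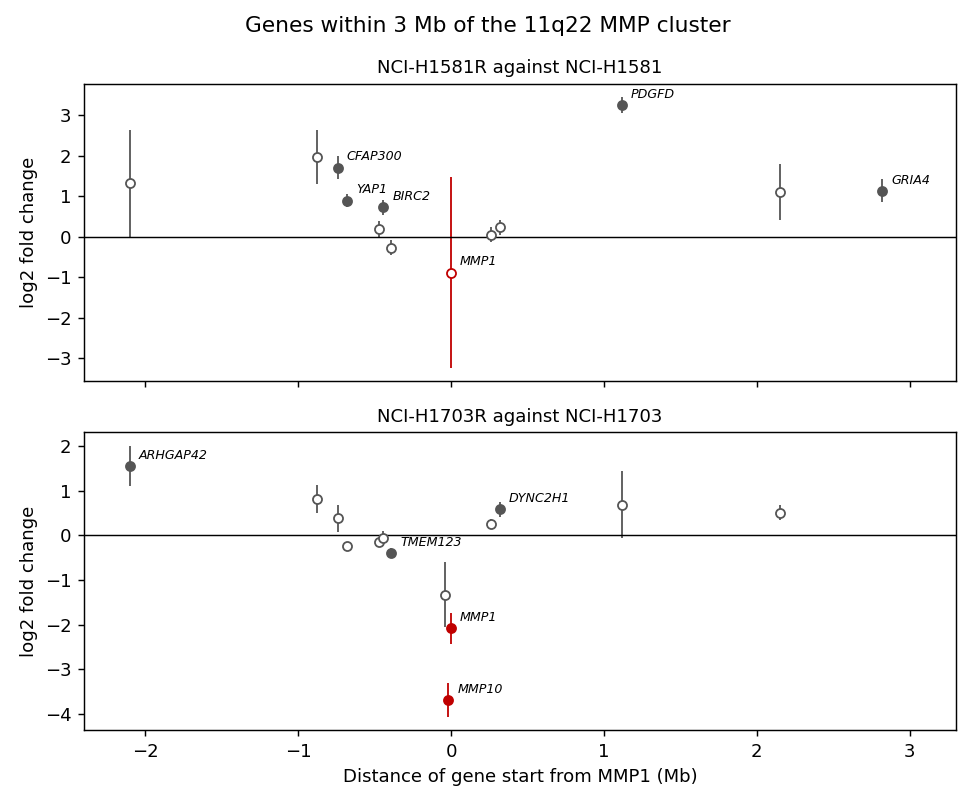
Log2 fold change (y axis, bars for the standard error) of genes within 3 Mb of the 11q22 MMP cluster against the distance of their annotated start coordinate from that of MMP1 in Mb (x axis), in NCI-H1581R (top) and NCI-H1703R (bottom). Filled symbols have an adjusted p under 0.1, MMP genes are red, and in the bottom panel MMP10 (-3.68) and MMP1 (-2.08) lie below their neighbours.

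MMP11, the third stromelysin, which is activated inside the cell by furin, differed widely between replicates. It had 235 and 35 counts in NCI-H1581 and 41 and 46 in NCI-H1581R, and it was not called (log2 fold change -1.72, SE 0.92, adjusted p = 0.316). In NCI-H1703 and NCI-H1703R it had 24 and 14 against 8 and 3 counts, with a log2 fold change of -1.84 (adjusted p = 0.188 in edgeR).

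Among the transmembrane MT-MMPs, MMP16 changed most and MMP14 remained the main MMP transcript of NCI-H1703. MMP16 (MT3-MMP; ENSG00000156103, chromosome 8, 88032011 to 88328025) had 9 and 13 counts in NCI-H1581 and 1324 and 1522 in NCI-H1581R, that is 0.296 ± 0.0407 CPM against 36.9 ± 2.46 CPM. The level was 123-fold higher, or 6.95 on the log2 scale (SE 0.32, adjusted p = 9.02e-05 in edgeR). In the other line it went the opposite way, from 3.57 and 3.65 CPM in NCI-H1703 to 1.06 and 0.818 CPM in NCI-H1703R. This log2 fold change was -1.91 (SE 0.32, adjusted p = 0.0232 in edgeR), with the call lost without the first (-1.94) or second (-1.87) NCI-H1703 library. Between the lines the change differed by -8.88 (SE 0.39, adjusted p = 1.02e-05 in edgeR). Per kb of its long transcript, MMP16 made up 10.8% and 11.6% of the MMP sum in NCI-H1581R and at most 0.576% elsewhere.

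MMP15 (MT2-MMP) fell in both variants. Its level went from 80.4 and 59.4 CPM to 30.6 and 30 CPM in NCI-H1581R and from 34.4 and 32.8 CPM to 19.9 and 21.5 CPM in NCI-H1703R. The groups did not overlap, with log2 fold changes of -1.19 (SE 0.20, adjusted p = 0.0125 in edgeR) and -0.67 (SE 0.10, adjusted p = 0.0186). The call was lost without NCI-H1581 replicate 1 (-0.98) and without the first (-0.65) or second (-0.68) NCI-H1703 library.

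MMP24 (MT5-MMP), best known from the nervous system, went from 3.51 and 4.25 CPM in NCI-H1703 to 1.32 and 1.21 CPM in NCI-H1703R. The log2 fold change was -1.57 (SE 0.31, adjusted p = 0.0346 in edgeR), and the call was lost when any 1 of the 4 libraries was left out (-1.73 to -1.42). In NCI-H1581R it was 0.34 (adjusted p = 0.769). The difference between the lines was -1.94 (SE 0.57, adjusted p = 0.0704 in edgeR) and was called in 1 of 8 fits with a library left out, the one without NCI-H1581 replicate 1. The opposite-strand gene MMP24OS covers 18.4% of the exon bases of MMP24, and its counts of 1214 and 1062 in NCI-H1703 and 1828 and 1878 in NCI-H1703R were far above those of MMP24. Without knowledge of the strand setting, reads of the shared bases cannot be told apart.

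MMP14 (MT1-MMP), the activator of pro-MMP2 and a collagenase at the cell surface, was at 133 and 120 CPM in NCI-H1703 and 141 and 139 CPM in NCI-H1703R. It made up 59% to 63.7% of the MMP sum per kb in these 4 libraries. Its log2 fold change in NCI-H1703R was 0.18 (SE 0.09, adjusted p = 0.298 in edgeR, and 0.062 with the block). In NCI-H1581 it held 1.28 and 2.17 CPM and in NCI-H1581R 1.06 and 3.58 CPM, with no call (0.43, SE 0.63, adjusted p = 0.744).

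Of the GPI-anchored MT-MMPs, MMP17 rose in NCI-H1703R and MMP25 fell in both variants. MMP17 (MT4-MMP; ENSG00000198598, chromosome 12, 131828393 to 131851783) went from 8.54 and 6.76 CPM in NCI-H1703 to 41.4 and 33 CPM in NCI-H1703R. This was a 4.96-fold rise (log2 2.31, SE 0.18, adjusted p = 0.00224 in edgeR), and MMP17 was the one member called in NCI-H1703R in all 4 fits with a library left out. In NCI-H1581R its level was 34.2 and 34 CPM against 55 and 42.9 CPM in NCI-H1581 (log2 fold change -0.51, SE 0.18, adjusted p = 0.149). The difference between the lines was 2.80 (SE 0.27, adjusted p = 0.000447 in edgeR). The share of MMP17 in the MMP sum per kb was 6.05% and 5.11% in NCI-H1703 and 27.7% and 23.2% in NCI-H1703R.

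MMP25 (MT6-MMP), known from neutrophils, had 227 and 142 counts in NCI-H1581 and 10 and 21 in NCI-H1581R. The log2 fold change was -3.63 (SE 0.59, adjusted p = 0.0119 in edgeR), and it was -4.24 without NCI-H1581R replicate 2. In NCI-H1703 it had 65 and 56 counts and in NCI-H1703R 24 and 23, a log2 fold change of -1.43 (SE 0.39, adjusted p = 0.0857) whose call was lost when any 1 of the 4 libraries was left out (-1.46 to -1.40). Exons of the antisense gene MMP25-AS1 cover 30.6% of the exon bases of MMP25. The remaining MMPs were scarce, with 0 to 14 counts of MMP28 (epilysin) in each library, 2 counts of MMP19 and 3 of MMP21 in total over all libraries.

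The summed ADAMTS level per kb, in which ADAMTS1 had the largest part in NCI-H1581, was higher in NCI-H1581 and its variant than in the other line. It was 50.5 and 56.1 CPM per kb in NCI-H1581 and 75 and 100 in NCI-H1581R, against 3.98 and 2.62 in NCI-H1703 and 4.05 and 2.49 in NCI-H1703R. Between the sensitive lines, 8 of the 16 ADAMTS genes tested were called (50%), a smaller share than the 62.9% of all genes, and 8 were not. Of the called genes, 6 were lower in NCI-H1703 and 2 higher (ADAMTS2 and ADAMTS14), against 30.4% and 32.5% of all genes. In NCI-H1581R 5 of the 16 rose and 1 fell (37.5% called, against 15.1% of all genes). In NCI-H1703R 1 rose and 2 fell (18.8%, against 14.7%, a share close to that of all genes), and 0 were called without either NCI-H1703 library.

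Among the proteoglycanases, ADAMTS5 and ADAMTS20 rose in NCI-H1581R and ADAMTS1 was not called. ADAMTS5, the main aggrecanase of cartilage, went from 6.02 and 6.67 CPM to 22.9 and 20.6 CPM (log2 fold change 1.78, SE 0.21, adjusted p = 0.0034 in edgeR). It had 0 counts in all 4 libraries of the other line, so its level in NCI-H1703 was at least 74.3-fold lower than in NCI-H1581, taking 3 counts per library as the limit. ADAMTS20, a versican-cleaving enzyme, went from 36.2 and 38.5 CPM to 71.4 and 127 CPM (log2 fold change 1.42, SE 0.29, adjusted p = 0.0276), and its call was lost without the first (1.36) or second (1.47) NCI-H1581 library. ADAMTS1, another proteoglycanase and the most abundant ADAMTS transcript of this line, stood at 201 and 229 CPM in NCI-H1581 and 184 and 233 CPM in NCI-H1581R. The log2 fold change of ADAMTS1 was -0.04 (SE 0.19, adjusted p = 0.954), while its share of the ADAMTS sum went from 76.8% and 79% to 47.4% and 44.9%. In the other line ADAMTS1 had 3 to 9 counts in each library. ADAMTS4, ADAMTS8, ADAMTS9 and ADAMTS15 were not called in either line without the block, and none of them exceeded 1.27 CPM in a library.

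ADAMTS19 showed the largest rise among the ADAMTS genes called in NCI-H1581R. ADAMTS19 (ENSG00000145808, chromosome 5, 129460281 to 129738683), an enzyme known from heart valve development, went from 14.1 and 14.3 CPM to 117 and 139 CPM, 9.07-fold higher. The log2 fold change was 3.18 (SE 0.19, adjusted p = 0.000208 in edgeR), and its share of the ADAMTS sum per kb was 5.35% and 4.9% in NCI-H1581 and 29.9% and 26.6% in NCI-H1581R. In the other line it had at most 2 counts in a library. ADAMTS6, the related fibrillin-associated enzyme, went from 1.48 and 1.17 CPM to 6.08 and 12.2 CPM (log2 fold change 2.80, SE 0.47, adjusted p = 0.014). It was 2.20 without NCI-H1581R replicate 2, and the call was lost without NCI-H1581 replicate 2 (2.63). ADAMTS10, which also acts on fibrillin microfibrils, went from 2.61 and 2.17 CPM to 4.25 and 7.14 CPM (1.27, SE 0.38, adjusted p = 0.0944), and was called in 1 of the 4 fits with a library left out, the one without NCI-H1581R replicate 1. ADAMTS17, of the same group, fell in NCI-H1703R from 31 and 32 counts to 6 in each library (log2 fold change -2.44, SE 0.58, adjusted p = 0.0603), and this call was lost when any 1 of the 4 libraries was left out (-2.56 to -2.33).

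The procollagen N-propeptidases ADAMTS2, ADAMTS3 and ADAMTS14 remove the amino-terminal propeptide of fibrillar procollagens, and ADAMTS3 also processes VEGF-C. ADAMTS3 had 43 and 9 counts in NCI-H1581 and 0 in both libraries of NCI-H1581R, at least 9.63-fold lower (adjusted p = 0.0591 in edgeR), or at least 2.88-fold without NCI-H1581 replicate 1 and 16.4-fold without NCI-H1581 replicate 2. The call was lost without NCI-H1581 replicate 1 (adjusted p = 0.184) and without either NCI-H1581R library. In the other line ADAMTS3 had 5 counts in each NCI-H1703 library and 107 and 98 in NCI-H1703R, a log2 fold change of 4.25 (SE 0.50, adjusted p = 0.00731), with the call lost without the first (4.16) or second (4.34) NCI-H1703 library. ADAMTS2 fell in NCI-H1703R from 9.08 and 6.1 CPM to 2.83 and 2.69 CPM (-1.43, SE 0.27, adjusted p = 0.0325), and no fit with a library left out kept this call (-1.67 to -1.13). ADAMTS14, ADAMTS7, which cleaves cartilage oligomeric matrix protein, and ADAMTS13, which cleaves von Willebrand factor, were not called in either line without the block. The counts of ADAMTS7 are uncertain because the genome holds near-identical pseudogene copies of it. ADAMTS12, ADAMTS16 and ADAMTS18 had 6, 0 and 3 counts in total.

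The sensitive lines were also set against each other, a comparison in which line and culture medium cannot be told apart. Of the 31 members, 20 (64.5%) were called, against 62.9% of all genes, with 8 higher in NCI-H1703 and 12 lower, against 32.5% and 30.4% of all genes, so the share of members was close to that of all genes. Per kb, the highest members in NCI-H1581 were TIMP1 (239 CPM per kb), TIMP2 (60.4), MMP2 (47), ADAMTS1 (41.5) and MMP17 (20.3). In NCI-H1703 they were TIMP1 (93.6), TIMP2 (54.4), MMP14 (34.2), MMP15 (8.28) and MMP10 (4.37). In NCI-H1581R they were ADAMTS1 (40.3), TIMP2 (34.8), ADAMTS19 (24.6), ADAMTS20 (15.6) and MMP17 (14.1), and in NCI-H1703R TIMP1 (122), MMP14 (37.8), TIMP2 (34.5), MMP17 (15.4) and MMP15 (5.1). TIMP1 thus held the first place in each group other than NCI-H1581R. TIMP2, at 199 ± 5.41 CPM in NCI-H1703 and 220 ± 6.63 CPM in NCI-H1581, was not called between the lines (log2 fold change -0.15, SE 0.09, adjusted p = 0.214).

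Genes that act with these proteases were followed as lists. Of 18 tested partners, which included the plasminogen activators, the proprotein convertases and MMP regulators, 5 were called in each line (27.8%), against 15.1% of all genes in NCI-H1581R and 14.7% in NCI-H1703R, or 10 in NCI-H1703R with the replicate block, against 34.9%. Leaving out 1 library at a time called 3 to 8 of them in NCI-H1581R and 0 to 3 in NCI-H1703R, with 0 without either NCI-H1703 library. The urokinase receptor gene PLAUR fell in both variants, with a log2 fold change of -2.73 (adjusted p = 0.00122 in edgeR) in NCI-H1581R and -1.11 (adjusted p = 0.0138) in NCI-H1703R. THBS1, which encodes thrombospondin 1, rose in NCI-H1581R (1.78, adjusted p = 0.0503) and fell in NCI-H1703R (-3.09, adjusted p = 0.04), where its counts of 7 and 104 differed between the replicates. In NCI-H1581R the tissue plasminogen activator gene PLAT fell by 3.25 on the log2 scale (adjusted p = 0.017), and A2M, the gene of the broad protease inhibitor alpha-2-macroglobulin, went from 46 and 51 counts to 0. In NCI-H1703R TFPI2, a serine protease inhibitor, changed by -1.17 (adjusted p = 0.04).

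Of 13 tested ADAM and ADAMTS-like genes, 4 were called in each line (30.8%), against 15.1% and 14.7% of all genes, or 7 in NCI-H1703R with the block, against 34.9%. The sheddase gene ADAM9 fell in both, from 3346 and 3657 counts to 1762 and 1869 in NCI-H1581R (adjusted p = 0.0105 in edgeR) and with a log2 fold change of -0.58 in NCI-H1703R (adjusted p = 0.0421). ADAM12 rose by 5.92 in NCI-H1581R (adjusted p = 0.00313), from 0 and 3 counts to 113 and 91, and ADAM19 by 2.11 (adjusted p = 0.0038) and ADAMTSL3 by 1.91 (adjusted p = 0.0697). In NCI-H1703R ADAMTSL4 had a log2 fold change of -1.53 (adjusted p = 0.0105) and ADAMTSL5 of 0.52 (adjusted p = 0.0908). With 1 library left out, 2 to 6 of these genes were called in NCI-H1581R and 0 to 2 in NCI-H1703R, with 0 without NCI-H1703 replicate 1.

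Of 13 genes for known ADAMTS substrates, 5 rose and 4 fell in NCI-H1581R (69.2% called, against 15.1% of all genes). The latent TGF-beta binding protein gene LTBP1 rose by 5.65 on the log2 scale (adjusted p = 0.000172 in edgeR), the versican gene VCAN by 5.60 (adjusted p = 0.000197) and the fibrillin gene FBN1 by 3.14 (adjusted p = 0.000721). LTBP1 went the other way in NCI-H1703R (-1.01, adjusted p = 0.0331), as did COL1A1, a fibrillar collagen gene, which changed by -1.09 in NCI-H1581R (adjusted p = 0.031) and by 4.65 in NCI-H1703R (adjusted p = 0.000743). These were the 2 substrate genes called in NCI-H1703R (15.4%, about the 14.7% of all genes), of which COL1A1 stayed called in all 4 fits with a library left out. In NCI-H1581R 4 of the 9, VCAN, NCAN, FBN1 and LTBP1, were called without either NCI-H1581 library.

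Of 12 AP-1 and ETS factor genes, 3 were called in NCI-H1581R (25%, against 15.1% of all genes) and 5 in NCI-H1703R (41.7%, against 14.7%), all lower. With the block 4 and 9 were called, against 18.1% and 34.9% of all genes, of which ETS1 and ETS2 were higher in NCI-H1703R. FOSL2 fell in both, by 0.96 (adjusted p = 0.0272 in edgeR) and by 1.28 (adjusted p = 0.00304). FOSL1 fell by 3.05 in NCI-H1581R (adjusted p = 0.00107), where JUNB fell by 0.74 (adjusted p = 0.0545). ETV4, ETV1 and JUN fell by 3.39 (adjusted p = 0.00134), 1.89 (adjusted p = 0.0693) and 1.65 (adjusted p = 0.00415) in NCI-H1703R. With 1 library left out, 1 to 5 of the genes were called in NCI-H1581R, with FOSL1 alone without either NCI-H1581 library, and 2 to 5 in NCI-H1703R, with FOSL2 and ETV4 alone without either NCI-H1703 library.

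The genes within 250 kb of 10 members that changed were inspected after the values of the members were seen. Of their 56 tested neighbours, 10 (17.9%) were called in NCI-H1581R, against 15.1% of all genes, and 11 (19.6%) in NCI-H1703R, against 14.7%, so both shares were near those of all genes. Of the 8 neighbours of TIMP1, SYN1, whose intron holds TIMP1, was the one called in NCI-H1581R, at -1.17 on the log2 scale (adjusted p = 0.0337 in edgeR). In NCI-H1703R 4 of the 8 were called, all higher, namely ZNF41 (1.19, adjusted p = 0.0302), ARAF (0.76, 0.00817), ELK1 (1.06, 0.0035) and UXT (0.69, 0.0338). Of the 3 neighbours of MMP2, LPCAT2 (-1.81, adjusted p = 0.00213) and SLC6A2 (-4.72, adjusted p = 0.00432) fell in NCI-H1581R, and IRX6 was not called (adjusted p = 0.247).

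Of the 4 neighbours of MMP17, ULK1 was the one called in NCI-H1703R (2.37, adjusted p = 0.00432 in edgeR), where SFSWAP (-0.02), PUS1 (0.35) and EP400 (0.21) were not. PUS1 was lower in NCI-H1581R (-0.87, adjusted p = 0.0209). Of the 24 neighbours of MMP25, CLDN6 was higher and KREMEN2 and TNFRSF12A were lower in NCI-H1581R, and PKMYT1, IL32 and ZNF205 were lower in NCI-H1703R. Of the 5 neighbours of ADAMTS20, PUS7L (1.31, adjusted p = 0.0124), IRAK4 (1.62, adjusted p = 0.00679) and the gene ENSG00000257813 were higher in NCI-H1581R, and IRAK4 was also higher in NCI-H1703R (0.53, adjusted p = 0.0654). Of the 8 neighbours of ADAMTS6, 0 were called in NCI-H1581R, and SGTB and NLN were lower in NCI-H1703R. The 2 neighbours of ADAMTS19 and the 1 each of ADAMTS5 and ADAMTS3 were not called in either line, and MMP16 had 0 tested neighbours. Copy number was not analysed here. The study measured it with comparative genomic hybridisation arrays and reports differences between the sensitive and resistant variants of each line. Whether those differences bear on the genes above was not tested.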

How the data were processed

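Total RNA from 4 variants with 2 libraries each was sequenced as paired reads of 100 bp. Per the labels and the methods of the study, the authors ran cutadapt and Salmon (GRCh38) and brought the transcripts into R through tximport. What they deposited is a table of whole-number estimated counts, without normalisation. Versions, gene annotation, tximport scaling and strand settings are not given in the sources used here. The 15136 genes with 0 counts in all libraries do not bear on library sizes.

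Genes with at least 10 counts in total were kept and tested with edgeR 4.0.16 in R 4.3.3 (TMM, quasi-likelihood test, two-sided, Benjamini-Hochberg over all genes tested, adjusted p under 0.1), for each line separately. The interaction used all 8 libraries. The SE given with edgeR values is the absolute log2 fold change divided by the square root of the F statistic of the test. A line fit has 2 residual degrees of freedom, and edgeR moderates the dispersion of each gene with that of all genes tested. Each p thus rests on the spread between 2 libraries per variant, with information shared across genes. Alternatives were DESeq2 1.42.0, other filters, scalings and thresholds, a replicate block and leaving out each library. The code was tested on simulated counts. Coordinates and transcript lengths are from GENCODE on GRCh38, with the Ensembl canonical transcript per gene.

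Per the methods of the study, replicate 2 comes from a repeat of the culture procedure from seeding to harvest. Replicate numbers were thus taken as paired within a line. Neither the labels nor the methods say that both variants of a line were handled together in a round. The replicate differences of a sensitive line and its variant correlated at 0.15 for NCI-H1581 and 0.23 for NCI-H1703 over 11174 genes with a mean of at least 5 CPM, and those of the 2 sensitive lines at -0.049. Replicates of a group differed by more than sampling noise.

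Named with values were members called in a line, the 5 highest per line per kb, the TIMPs and the 11q22 MMPs, and from each accompanying list the genes called in both lines and up to 3 called genes with the largest change per line. Levels are scaled by TMM throughout. Neighbouring genes, and other members given with values, were picked with their values in view. Members and lists were chosen with earlier results of these data known.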

Additional observations from a re-analysis of the deposited data

Results flagged for a closer look

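The change with resistance differed between the lines for 6 of 31 members (19.4%) in edgeR's interaction test (adjusted p under 0.1). This share was near the 15.4% of all genes called in that test, which was computed within a fit of all genes. The values below are the log2 fold change in NCI-H1703R minus that in NCI-H1581R. They were 10.34 for TIMP1 (adjusted p = 6.28e-06; -9.94 in NCI-H1581R and 0.41 in NCI-H1703R), -8.88 for MMP16 (adjusted p = 1.02e-05; 6.95 and -1.91) and 11.95 for ADAMTS3 (adjusted p = 0.0106; -7.74 and 4.25). For MMP2 the difference was 4.25 (adjusted p = 0.00859; -4.50 and -0.23), for MMP17 2.80 (adjusted p = 0.000447; -0.51 and 2.31) and for MMP24 -1.94 (adjusted p = 0.0704; 0.34 and -1.57). The fitted value of ADAMTS3 rests on a group with 0 counts and is no measured fold. With 1 library left out at a time, the difference of TIMP1 was 9.54 to 12.11, of ADAMTS3 10.32 to 12.77 and of MMP2 3.51 to 5.62, all still called, and that of MMP24 was called in 1 of 8 fits. The cause of these differences was not tested.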

How the results depend on the processing

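The counts of members called moved by over 1.5 times in each NCI-H1703R fit with a library left out, and in few other settings. With 1 library left out, 7 to 13 members were called in NCI-H1581R (12 with all libraries), 1 to 8 in NCI-H1703R (13), 5 to 7 in the interaction (6) and 18 to 22 between the sensitive lines (20). Requiring 10 counts in each library of the fit left 11 members for the interaction, of which 2 were called (MMP17 and MMP24). MMP2, MMP16, TIMP1 and ADAMTS3 did not pass that filter and were not tested there. The same filter left 17 members for the sensitive lines, of which 11 were called. The replicate block gave 12, 19, 7 and 21 calls in these comparisons and added ADAMTS10 to the interaction and ADAMTS3 to the sensitive lines; it ended no call of a member. Between the sensitive lines the block assumes a shared round, and their replicate differences correlated at -0.049. DESeq2 gave 13, 12, 9 and 20, and an adjusted p under 0.05 gave 10, 10, 5 and 19. Over all genes DESeq2 called 3223 in NCI-H1581R and 3037 in NCI-H1703R, beside 2743 and 2683 in the main fits. The share of all genes is not given here for every setting, so these counts cannot be read as shifts of the members alone. No called member changed sign in any of these alternatives. The legacy quasi-dispersions of edgeR, chosen after seeing the data, gave 12, 13, 7 and 21 calls. TIMP1 in NCI-H1703R lost its call with RLE scaling, without a filter and in the fit of all 8 libraries, MMP25 in NCI-H1703R with DESeq2 and in the fit of all 8, ADAMTS10 in NCI-H1581R in the fit of all 8, and ADAMTS3 in NCI-H1581R without a filter; the cause was not tested. At these depths, members under 10 counts in total allow no statement on change.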
